A study of Mus musculus with 10 samples.

Results

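The insulin and IGF signalling genes described here are Igf1, Igf2, Igf1r, Igf2r, Insr, Irs1, Irs2, Igf2bp2, Igfbp3 and Igfbp4. They were found by their symbols among the 39017 genes counted, and all 10 had a row and passed the filter on low counts. Insulin and the insulin-like growth factors bind receptor tyrosine kinases at the cell surface, which phosphorylate docking proteins of the IRS family. The docking proteins recruit PI3K, which leads to activation of AKT and mTOR and keeps FOXO transcription factors out of the nucleus. In the lung the IGF ligands come largely from mesenchymal cells, whereas epithelial tumour cells carry the receptors, and binding proteins in the extracellular space hold the ligands away from the receptors or carry them there.

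The genes were measured by mRNA sequencing of 5 KP and 5 KPG1 mouse lung tumour samples, to ask how tumours without the glucose transporter Glut1 differ from tumours that have it. All mice were C57BL/6 males in which an Ad5SPC-Cre adenovirus, whose surfactant protein C promoter limits Cre to cells that make this protein, started the tumours through engineered alleles shared by both groups. KPG1 mice were also homozygous for floxed Slc2a1, the gene of Glut1, while the controls are labelled heterozygous fl/wt in one field and wild type in another, so they may keep a floxed allele. Tumours were dissected 18 weeks and 6 days after initiation and depleted of cells carrying the leukocyte marker CD45 with magnetic beads, and no label says whether the samples of a group came from separate mice, so p-values measure the spread between these samples only.

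Depth was between 32427029 and 49534284 counts per library. Slc2a1 was at 102 ± 25.4 CPM (counts as a share of the library total, scaled by TMM factors; ± SD, n = 5) in KP and 50.1 ± 10.1 in KPG1, and the groups did not overlap (exact permutation p = 0.00794; limma adjusted p = 0.0675). On the first principal component, which held 28.0% of the variance, the libraries KP 1 and KP 5 stood at opposite ends, so results that rest on either are given without it. The 5 epithelial markers were all detected, with Epcam between 334 and 627 CPM. The 5 leukocyte markers summed to 12.6 to 26.4 CPM in KP and 11 to 19.8 CPM in KPG1. Of these Ptprc (CD45) lay between 5.21 and 11 CPM in all 10 libraries and Cd3e between 0 and 0.189 CPM. Itgam, a myeloid marker among them, was at 6.15 to 16.6 CPM in KP and 2.51 to 5.80 CPM in KPG1 (limma adjusted p = 0.263). Its groups did not overlap, as in 2.81% of all genes tested. The macrophage markers Csf1r, Cd68, Mrc1 and Marco each overlapped between the groups, and their sum had an exact permutation p of 0.0952. The part of myeloid cells in the results was not tested. The 6 fibroblast and 5 endothelial markers summed to between 93.8 and 269 CPM and between 195 and 863 CPM.

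Igf2bp2, which encodes an mRNA-binding protein named for its binding to Igf2 mRNA, and Irs2, a docking protein of the insulin and IGF receptors, had the largest differences between the groups. Their mean levels in KPG1 were 26.7% and 40.1% of those in KP. None of the 10 members passed an adjusted p of 0.05 in limma, where 0.173% of all 16216 genes tested passed. At an unadjusted p under 0.05, 3 of 10 members (Igf2bp2, Irs2 and Igfbp4) were lower in KPG1 and 0 were higher, where 6.31% of all genes were lower at this level. The edgeR quasi-likelihood test also passed 0 members, and DESeq2 passed Irs2 and Igf2bp2, both lower, where 2.67% of its genes passed in that direction. The fitted change was negative for 7 members and positive for 3, where it was positive for 8547 of all 16216 genes tested. The members had a median log2 fold change of -0.35, against 0.02 over all genes tested. In 1 of 10 members, Igf2bp2, the groups did not overlap, as in 2.81% of all genes. The members and the lists below were chosen with earlier results of these data known. The shares set beside those of all genes are thus a description and no test of the set. These are bulk samples, so fewer cells of a type and less RNA per cell cannot be told apart in any difference given here.

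**Figure D1:**
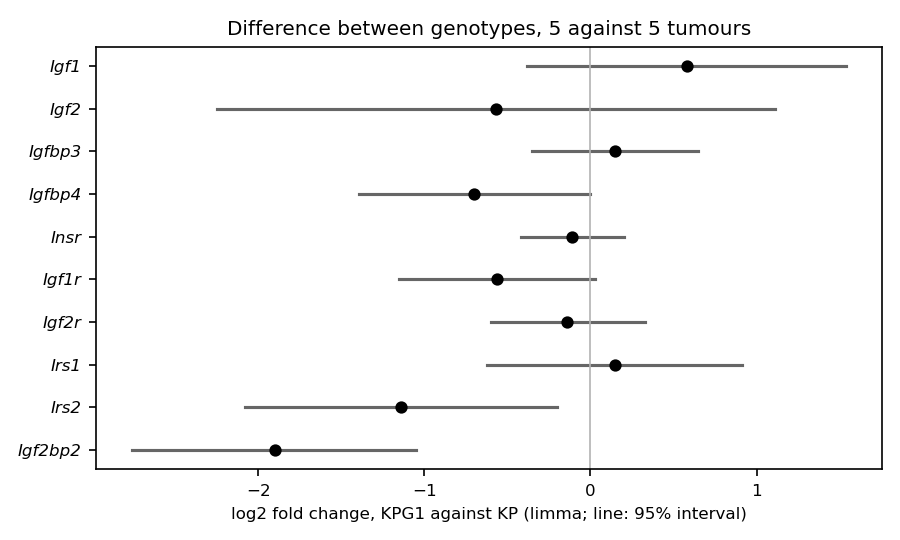
The log2 fold change of each member in KPG1 against KP from limma (points) with its 95% interval (lines), from 5 samples in each group. The intervals of Igf2bp2 (-2.76 to -1.05) and Irs2 (-2.08 to -0.20) lay below 0, that of Igfbp4 reached to 0 (-0.00), and the others spanned it.

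Leaving out KP 5 brought the same members, Igf2bp2 and Irs2, past the threshold, with limma adjusted p-values of 0.0324 and 0.0220, where 1.35% of all genes passed in that direction. A fit that gave each library a weight did so as well, at 0.0384 and 0.0297, where 1.09% of all genes passed as lower. KP 5 was also the library with the lowest summed level of epithelial markers in its group (3990 CPM, against up to 5570 CPM in the other KP libraries) and with the lowest fibroblast, endothelial and pericyte sums of all 10, and the part of these in the result was not tested.

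Per kilobase of exon, the binding protein Igfbp3 had the highest level, with a median of 116 CPM per kb over the 10 libraries. It was followed by Igf2r at 24, Igfbp4 at 15.6, Insr at 11.5 and Irs2 at 9.53 CPM per kb. Lower still were Igf2bp2 at 2.61, Irs1 at 2.32, Igf1r at 1.71, Igf1 at 0.563 and Igf2 at 0.484 CPM per kb. Igfbp3 was above Igf2r in all 10 libraries, and Irs2 was above Igf2bp2 in all 10. Igf2r exceeded Igfbp4 in 8 libraries, Igfbp4 exceeded Insr in 8, and Igf1r exceeded Igf1 in 8. The other neighbours in this order, Insr and Irs2, Igf2bp2 and Irs1, Irs1 and Igf1r, and Igf1 and Igf2, kept their order in 5 or 6 of 10 libraries. In these pairs the order differed in part between the groups. Igf2bp2 exceeded Irs1 in 4 of 5 KP and 1 of 5 KPG1 libraries, with means of 5.01 against 2.42 CPM per kb in KP and 1.34 against 2.52 in KPG1. Mean Irs2 was above Insr in KP (18.7 against 11.8 CPM per kb) and below it in KPG1 (7.51 against 10.9). Insr exceeded Irs2 in 2 of 5 KP and 4 of 5 KPG1 libraries. The same counts held for Irs1 above Igf1r and for Igf1 above Igf2, which had overlapping levels in both groups. Mean Igf1 was below Igf2 in KP (0.572 against 0.996 CPM per kb), where KP 1 was highest in both. In KPG1 it was above Igf2 (0.765 against 0.418).

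**Figure D2:**
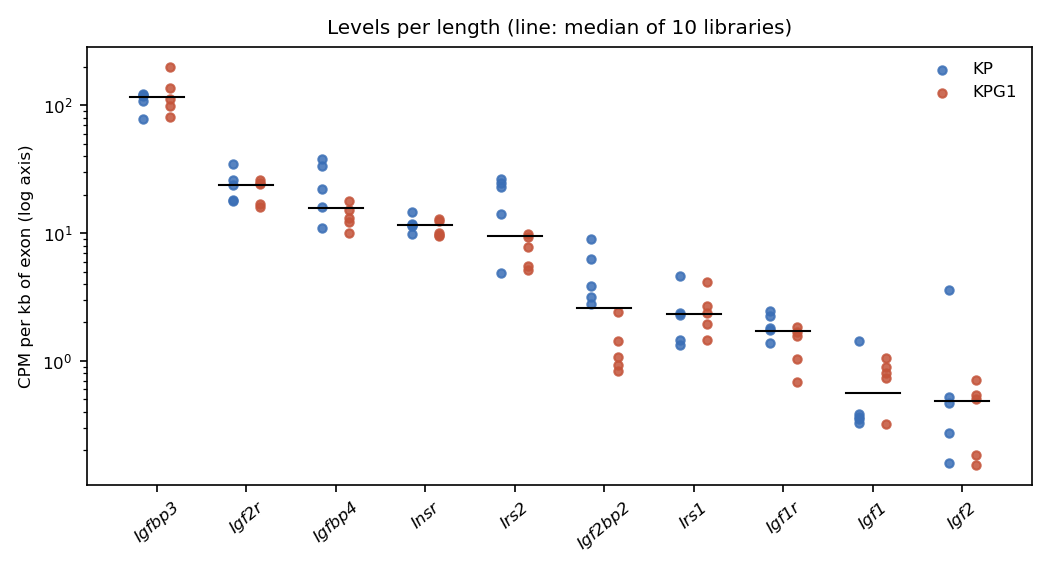
Level of each member in CPM per kilobase of exon on a log axis, with a point for each of the 10 libraries and a line at their median. Igfbp3 stood highest, with a median of 116, and the ligands Igf1 and Igf2 lowest, at 0.563 and 0.484. Igf2bp2 was the only member whose KP and KPG1 points did not overlap.

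Igf1 (ENSMUSG00000020053, chr10:87858265-87937042, plus strand) encodes the growth factor that is the main ligand of the IGF1 receptor. In KP 1 to KP 5 its level was 14.2, 3.49, 3.83, 3.23 and 3.63 CPM, and in KPG1 1 to KPG1 5 it was 7.32, 3.21, 8.00, 10.5 and 8.86 CPM. KP 1 was highest of all, and 4 of the 5 KPG1 libraries lay above the other 4 KP libraries, so the groups overlapped. In limma the fold change of Igf1 was 0.58 ± 0.44 on the log2 scale (SE; adjusted p = 0.639). Without KP 1 the difference in mean log2 CPM was 0.99 (exact permutation p = 0.0476), and limma still did not pass it (adjusted p = 0.332). KP 1 had a fibroblast marker sum of 253 CPM, against 93.8 to 242 CPM in the other KP libraries and 159 to 269 CPM in KPG1, and a pericyte and smooth muscle sum of 255 CPM, against 63.3 to 159 CPM in the other 9 libraries. Whether these cells set the level of Igf1 was not tested.

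Igf2 (ENSMUSG00000048583, chr7:142650766-142666816, minus strand) encodes the imprinted growth factor that both the IGF1 receptor and Igf2r bind. Its level was 20.4, 1.57, 0.917, 2.67 and 2.99 CPM in KP 1 to KP 5. The KPG1 libraries had 4.04, 2.87, 3.10, 1.06 and 0.873 CPM. KP 1 was well above every other library, and the other 4 KP libraries lay within the range of KPG1. On the log2 scale the fold change of Igf2, -0.57 ± 0.77 (SE; adjusted p = 0.818 in limma), turned to 0.14 without KP 1 (adjusted p = 0.950). With all libraries edgeR gave -1.25 and DESeq2 -1.26 (adjusted p = 0.566 and 0.452). H19, the imprinted noncoding RNA next to Igf2 that is made from the other parental copy, was likewise highest in KP 1, with 627 counts there against 4 to 104 in the other 9 libraries (15.1 CPM against 0.114 to 2.36 CPM). In the annotation Igf2 shares 3596 exon bases on the same strand with Gm49394, which has no row in the count table, so reads from the shared stretch cannot be assigned to one of them.

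Igfbp3 (ENSMUSG00000020427, chr11:7206086-7213923, minus strand) encodes the major IGF carrier protein of the circulation. Its level was 374, 382, 339, 380.0 and 245 CPM in KP 1 to KP 5 and 626, 354, 433, 256 and 312 CPM in KPG1 1 to KPG1 5. KPG1 spanned a wider range than KP on both sides of most KP libraries, and the fold change on the log2 scale was 0.15 ± 0.23 (SE; adjusted p = 0.846 in limma), which without KPG1 1 became -0.05.

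Igfbp4 (ENSMUSG00000017493, chr11:99041244-99054392, plus strand) encodes a binding protein that holds IGFs until the protease Pappa cleaves it. Its level was 147, 97.4, 70.8, 169 and 48.2 CPM in KP and 66.9, 79.6, 43.9, 58.3 and 53.7 CPM in KPG1. In KP 1, KP 2 and KP 4 it was above every KPG1 library, and in KP 5 it was below 4 of them. The fold change of Igfbp4 on the log2 scale was -0.70 ± 0.32 (SE; unadjusted p = 0.0493, adjusted p = 0.432 in limma; exact permutation p = 0.103). Without KP 5 the difference in mean log2 CPM was -0.95 (exact permutation p = 0.0238), and limma did not pass it (adjusted p = 0.0958). With the number that each sample title carries added to the fit (the sample number) the change was -0.36 (adjusted p = 0.825).

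Among the receptors, Igf1r (ENSMUSG00000005533, chr7:67952827-68233668, plus strand) encodes the IGF1 receptor kinase. Its level was 30.3, 29.3, 23.3, 41.3 and 37.9 CPM in KP and 26.6, 31.2, 28.2, 17.4 and 11.5 CPM in KPG1. KPG1 4 and KPG1 5 lay below every KP library, and KP 4 and KP 5 lay above every KPG1 library, with the rest intermixed. The log2 fold change was -0.56 ± 0.27 (SE, 95% interval -1.15 to 0.03; limma adjusted p = 0.459). It was -0.33 without KPG1 5 and -0.84 with the sample number in the fit (adjusted p = 0.606 and 0.476).

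Insr (ENSMUSG00000005534, chr8:3122061-3279617, minus strand), the insulin receptor, was the steadiest member, with a 1.54-fold range over the 10 libraries. Its log2 CPM was between 7.07 and 7.64 in KP and between 7.02 and 7.49 in KPG1, with a log2 fold change of -0.11 and a 95% interval of -0.42 to 0.20 (limma adjusted p = 0.801). Igf2r (ENSMUSG00000023830, chr17:12682406-12769664, minus strand) encodes the mannose 6-phosphate receptor that clears IGF2 by endocytosis. Its log2 CPM was between 7.38 and 8.33 in KP and between 7.22 and 7.92 in KPG1, with a log2 fold change of -0.14 and a 95% interval of -0.60 to 0.33 (limma adjusted p = 0.842).

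The balance of the receptors was read within each library, where scaling cancels. Per length, Insr exceeded Igf1r 6.18-fold in KP and 8.43-fold in KPG1 (from mean log2 ratios). The log2 ratio of Igf1r to Insr counts was -2.34 ± 0.19 in KP and -2.79 ± 0.49 in KPG1 (SD, n = 5), a difference of -0.45 (95% interval -0.99 to 0.09; exact permutation p = 0.0714). KPG1 5 held the lowest ratio, -3.54, and KP 5 the highest, -2.04. Without KPG1 3 the difference was -0.58 (exact permutation p = 0.0159), and over all single omissions it ran from -0.58 to -0.26. The other single omissions had exact permutation p-values from 0.0556 to 0.167.

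Irs2 and Irs1 encode the docking proteins that the activated receptors phosphorylate. Irs2 (ENSMUSG00000038894, chr8:10984681-11008458, minus strand) was at 158, 169, 146, 89.6 and 30.7 CPM in KP 1 to KP 5, and at 58.8, 35.0, 49.3, 32.6 and 61.8 CPM in KPG1 1 to KPG1 5. The first 4 KP libraries lay above all 5 KPG1 libraries, and KP 5 lay below all of them. The log2 fold change was -1.14 ± 0.43 (SE, 95% interval -2.08 to -0.20; unadjusted p = 0.0217, adjusted p = 0.342 in limma; exact permutation p = 0.0714). Without KP 5 it was -1.58, and the exact permutation test gave its smallest possible p for 4 against 5 libraries, 0.00794. Fitted together with the number that each label gives its sample, the Irs2 difference was -0.32 (limma adjusted p = 0.869), and KP 5 was the only KP library whose number, 6, fell among the KPG1 numbers (1 to 10). What the numbers stand for is not given.

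Irs1 (ENSMUSG00000055980, chr1:82233101-82291416, minus strand) was at 13.4, 42.2, 20.8, 21.8 and 12.2 CPM in KP and 13.4, 38.3, 24.4, 21.6 and 17.7 CPM in KPG1. Each group held one high library, KP 2 and KPG1 2, and the groups overlapped. The log2 fold change was 0.15 (95% interval -0.62 to 0.91; limma adjusted p = 0.902), and its sign turned without KP 5 (-0.05), without KPG1 2 (-0.06) and when libraries were weighted (-0.03). The log2 ratio of Irs1 to Irs2 counts was -2.35 ± 0.85 in KP and -1.08 ± 0.91 in KPG1 (SD, n = 5), a difference of 1.26 (95% interval -0.02 to 2.55; exact permutation p = 0.0556). Per length, Irs2 exceeded Irs1 7.35-fold in KP and 3.06-fold in KPG1. KPG1 2 was the only library with more Irs1 than Irs2 counts (0.13), although per length Irs2 was still 1.32-fold above Irs1 there. Without KPG1 1 the difference was 1.53 (exact permutation p = 0.0397). The other single omissions gave 0.96 to 1.52, with exact permutation p-values from 0.0556 to 0.119.

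**Figure D3:**
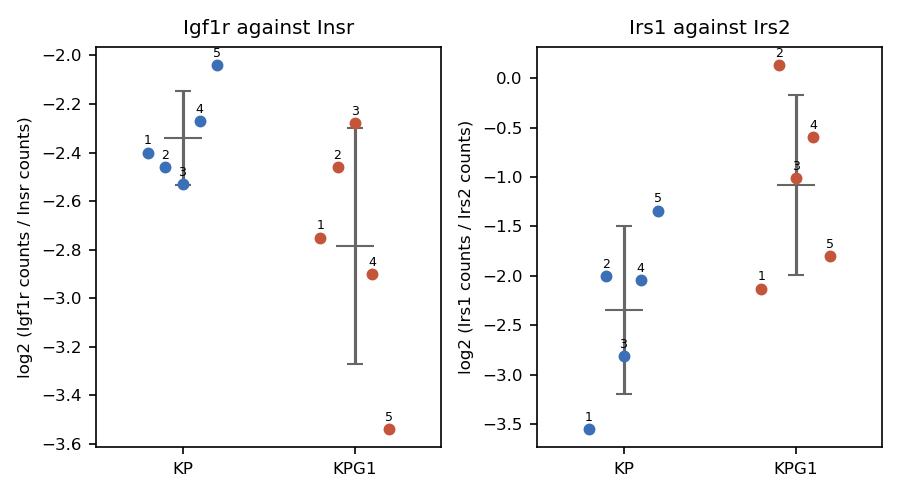
The log2 ratio of counts within each library for the receptors (Igf1r against Insr, left) and the docking proteins (Irs1 against Irs2, right), with points numbered by replicate and bars for the mean ± SD of 5 libraries. The receptor ratio averaged -2.34 in KP and -2.79 in KPG1, the docking protein ratio -2.35 and -1.08, and the groups overlapped in both.

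Igf2bp2 (ENSMUSG00000033581, chr16:22059009-22163299, minus strand) is the member of its family that is made in adult tissues, where it also binds mRNAs other than that of Igf2. Its level was 46.3, 28.7, 23.5, 66.2 and 20.6 CPM in KP 1 to KP 5. In KPG1 1 to KPG1 5 it was 6.21, 6.85, 7.98, 17.9 and 10.6 CPM. Every KPG1 library lay below every KP library, with the highest KPG1 value, 17.9 CPM in KPG1 4, close to the lowest KP value, 20.6 CPM in KP 5. The mean was 37.1 ± 19.1 CPM in KP and 9.91 ± 4.79 CPM in KPG1 (SD, n = 5). The log2 fold change was -1.90 ± 0.39 (SE, 95% interval -2.76 to -1.05; unadjusted p = 0.000449, adjusted p = 0.0857 in limma), and the exact permutation p of 0.00794 is the smallest that 5 against 5 libraries can give. Its adjusted p by edgeR's quasi-likelihood test was 0.0772 and by DESeq2 0.000101, and without any one library its limma log2 fold change stayed between -2.13 and -1.65, with adjusted p-values from 0.0324 to 0.264. With the sample number in the fit it was -1.53 (adjusted p = 0.4). The epithelial marker sum separated the groups in the same way, at 3990 to 5570 CPM in KP and 2980 to 3640 CPM in KPG1 (exact permutation p = 0.00794), through Krt18 (log2 fold change -0.87, limma adjusted p = 0.0501) and Krt8 (-0.67, adjusted p = 0.0699) but not Epcam (0.05, adjusted p = 0.934). The 5 alveolar type 2 markers were all fitted higher in KPG1 (median log2 fold change 0.97). Their sum overlapped between the groups (exact permutation p = 0.175). The smallest changes were those of Sftpb and Sftpa1 (0.21 and 0.26, limma adjusted p = 0.832 and 0.856). Of the 5 only Abca3 did not overlap, as in 2.81% of all genes tested. It was at 338 to 1430.0 CPM in KP and 1490.0 to 2660.0 CPM in KPG1 (limma adjusted p = 0.332). The lowest alveolar type 2 sums were those of KP 1 and KP 4 (16600 and 23000 CPM, against 41300 to 76200 CPM in the other 8 libraries), which also held the most Igf2bp2 and Igfbp4. The part of these markers in the results was not tested. The levels of Igf2, whose mRNA gives the protein its name, did not separate the groups.

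**Figure D4:**
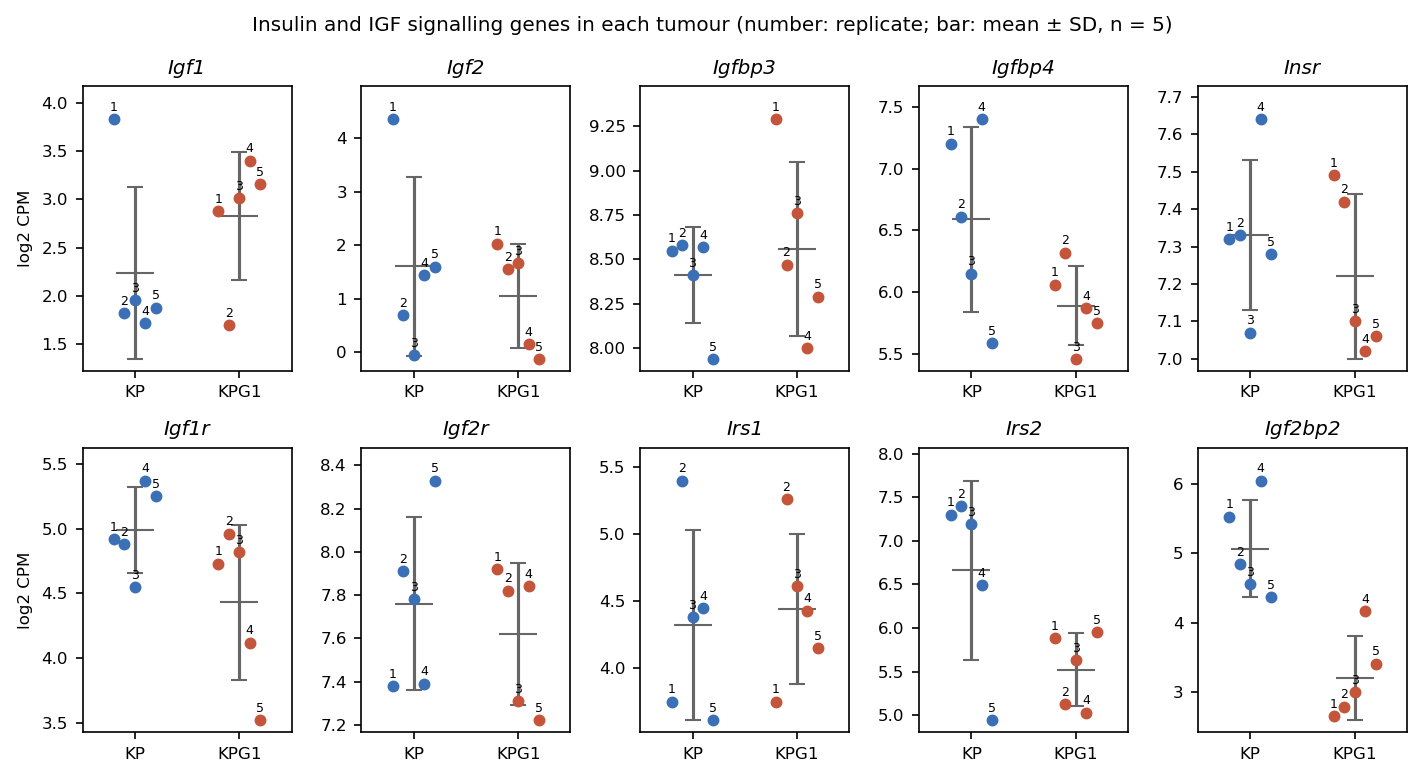
The log2 CPM of each member in every library, with points numbered by replicate and bars for the mean ± SD of 5 libraries per group. Igf2bp2 was lower in all KPG1 libraries than in any KP library, in Irs2 only KP 5 (4.94) lay below KPG1, and in Igf1 and Igf2 KP 1 (3.83 and 4.35) stood above the rest.

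The stretches of 150 bases just before the RefSeq start of the docking protein genes and of Igf2bp2 are printed because these genes carried the largest differences and the pair contrast. They are given 5′ to 3′ on the minus strand of GRCm38.p6, at chr1:82291440-82291589 for Irs1, chr8:11008930-11009079 for Irs2 and chr16:22163300-22163449 for Igf2bp2. Capitals mark CACGTG, the E-box core, and TGTTTTG, one form of the insulin response sequence that FOXO factors read.
Irs1: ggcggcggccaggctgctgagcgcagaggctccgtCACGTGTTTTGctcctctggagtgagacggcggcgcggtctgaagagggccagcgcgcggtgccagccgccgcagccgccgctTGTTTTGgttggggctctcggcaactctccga
Irs2: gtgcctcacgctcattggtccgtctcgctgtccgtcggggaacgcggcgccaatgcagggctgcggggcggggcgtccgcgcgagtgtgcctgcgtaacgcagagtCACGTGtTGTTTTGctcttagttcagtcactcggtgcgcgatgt
Igf2bp2: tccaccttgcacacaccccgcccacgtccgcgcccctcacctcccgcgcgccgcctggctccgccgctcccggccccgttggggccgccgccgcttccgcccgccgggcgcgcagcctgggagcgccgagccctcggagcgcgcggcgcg
Both motifs stand next to each other in Irs1, where they overlap, and in Irs2, where 1 base lies between them, and Irs1 holds TGTTTTG at another place too. Igf2bp2 holds neither in this stretch, of which 83.3% is G or C. Over the 250 bases before each start and on both strands, CACGTG was found in 6.02% of 32851 RefSeq windows and TGTTTTG in 5.56%. Among 12 windows of 9 members, CACGTG was in 3 (Irs1, Irs2 and Igf2r) and TGTTTTG in 2 (Irs1 and Irs2). The FOXO motif GTAAACA was in 0 of the 12, against 3.17% of all windows, and TATAAA was in 1, that of Igfbp4, against 12.4%. Insr had no window. The position given above for the Irs2 gene begins at 11008458 on the minus strand, so the RefSeq start used for Irs2 lies upstream of it. The stretches were chosen after the levels were known, and a match is a description of the letters only, shared here by Irs2 and by Irs1, whose levels behaved differently.

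Of 63 other genes of the pathway, 55 passed the filter and 0 passed the adjusted threshold in limma, in edgeR or in DESeq2. At an unadjusted p under 0.05, 4 were higher and 1 lower in KPG1, together 5 of 55 where 11.6% of all genes were at this level, and the median log2 fold change was 0.02, as over all genes. Ins1 and Ins2, the insulin genes, had 0 counts in every library, which allows up to 3 counts in each. Insrr, an orphan receptor of the same family, and Irs4 had at most 1 and 2 counts in a library. The other relatives of Igf2bp2 were low too, with at most 25 counts for Igf2bp1 and 43 for Igf2bp3, and neither passed the filter. In the fit without KP 2, Igf2bp1 was tested and passed as lower in KPG1 (log2 fold change -2.36, limma adjusted p = 0.0476). Igf2bp1 failed the filter with all libraries and was let in here by leaving KP 2 out. A filter set by group size can let a gene in through the group where it is higher. The call thus depends on the filter as well as on these few counts, and no conclusion is drawn from it. The share of all genes passing in that fit is not given.

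The groups did not overlap in 1 of the 55 genes, where 2.81% of all genes did not. It was Pik3r3, a regulatory subunit of PI3K, at 25.1 to 75.6 CPM in KP and 84.0 to 112 CPM in KPG1 (log2 fold change 1.02 ± 0.30 SE, limma adjusted p = 0.234). In the annotation it shares 1289 exon bases on the same strand with Gm49337, which has no row in the count table. Igfbp5, an IGF binding protein that also binds the extracellular matrix, averaged 232 CPM in KP and 543 CPM in KPG1 (log2 fold change 1.19 ± 0.41 SE, adjusted p = 0.305), with overlapping groups. Igfals, the acid-labile subunit that holds IGF and Igfbp3 in the circulation, averaged 4.94 and 8.75 CPM (0.92 ± 0.29 SE, adjusted p = 0.262). Gab1, an adaptor of receptor kinases, was the fourth with a positive difference (0.31, adjusted p = 0.416). The lower gene was Eif4ebp1, a repressor of translation that mTOR switches off (-0.46, adjusted p = 0.430). By role, 4 of 5 other binding proteins and 8 of 14 adaptors and receptor brakes were fitted higher. So were 9 of 13 genes of PI3K and AKT, 7 of 13 of mTOR and 2 of 6 of FOXO and GSK3. Of the binding protein proteases and their inhibitors, 1 of 4 was. Over all genes tested, 8547 of 16216 were fitted higher.

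**Figure D5:**
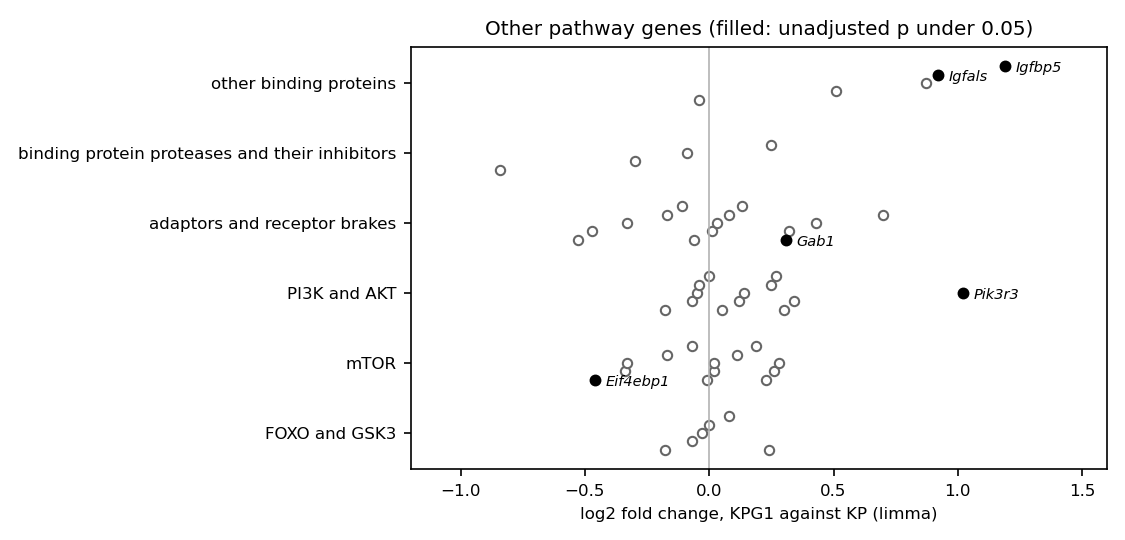
The limma log2 fold change (KPG1 against KP) of the other 55 tested pathway genes by role, with genes at an unadjusted p under 0.05 filled and named. Igfbp5 (1.19), Pik3r3 (1.02), Igfals (0.92) and Gab1 (0.31) lay to the right and Eif4ebp1 (-0.46) to the left.

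Genes that FOXO factors are known to induce when insulin or IGF signalling is low were listed too, and the members Irs2 and Insr are among them. Of 15 such genes 14 were tested and 0 passed in limma or edgeR, while DESeq2 passed 1, Irs2, as lower, where 2.67% of all its genes did so. At an unadjusted p under 0.05, 0 were higher and 2 were lower, Irs2 and Fbxo32, a ubiquitin ligase of muscle wasting (26.7 to 62.2 CPM in KP, 21.8 to 31.8 CPM in KPG1, log2 fold change -0.67 ± 0.25 SE, limma adjusted p = 0.334), where 6.31% of all genes were lower at this level. The median of the list was -0.16. Without KP 5, Gadd45a, a stress-induced growth arrest gene, passed beside Irs2 (log2 fold change -1.24, limma adjusted p = 0.0475), in a fit that passed 1.35% of all genes as lower. With all libraries it was -0.81 (adjusted p = 0.493). It shares its pattern of 4 KP libraries above every KPG1 library with Irs2.

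The members were highest in different libraries, such as Igf1 in KP 1, Igf2r in KP 5 and Igfbp3 in KPG1 1. Their correlations with one another were not computed. For each, the most similar of 12877 genes by Pearson correlation of log2 CPM was found, as a description over libraries that also share depth and cell makeup. With 10 libraries and this many genes, the highest correlations are large by chance too. No shared control is therefore read from them. For Irs2 they were Ier2 (r = 0.98, Spearman rho = 0.94), an immediate early gene, and Srf (r = 0.98, rho = 0.96), the transcription factor that drives many such genes. Ier2 averaged 273 ± 123 CPM in KP and 109 ± 28.1 CPM in KPG1 (SD, n = 5; log2 fold change -1.16 ± 0.41 SE, limma adjusted p = 0.319). Srf averaged 120.0 ± 56.9 and 54.4 ± 20.4 CPM (-1.0 ± 0.44 SE, adjusted p = 0.419), and in both genes 4 of 5 KP libraries lay above every KPG1 library. Igf2bp2 was most similar to Mpzl3 (r = 0.94, rho = 0.94) and Qars (r = 0.93, rho = 0.95), Igfbp4 to Nrk (r = 0.95, rho = 0.96) and Prosc (r = 0.95, rho = 0.87), and Igf1r to Mal (r = 0.90, rho = 0.96) and Litaf (r = 0.87, rho = 0.72). Igf1 was most similar to Cdon (r = 0.90, rho = 0.79) and Fmo1 (r = 0.89, rho = 0.81), and Igf2 to Fam118a (r = 0.93, rho = 0.88) and Tmem38a (r = 0.87, rho = 0.83). Igfbp3 followed Slco2b1 (r = 0.92, rho = 0.83) and Zeb1 (r = 0.91, rho = 0.89), a mesenchymal transcription factor. Insr followed Jak2 (r = 0.92, rho = 0.72) and 9030624J02Rik (r = 0.92, rho = 0.92), Igf2r followed Cds2 (r = 0.93, rho = 0.98) and Scx (r = 0.91, rho = 0.78), and Irs1 followed Gm8946 (r = 0.86, rho = 0.82) and Rraga (r = 0.86, rho = 0.88).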

How the data were processed

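Polyadenylated RNA of 10 CD45-negative tumour fractions had been sequenced by the authors from a stranded kit. The submitters' processing notes name cutadapt 1.4.2, HISAT2, featureCounts 1.4.4 and the build mm10, while the strand setting and annotation release are not given in the sources used here. The deposited counts are whole reads per gene, not normalized, and the joint table matched the single libraries in all 390170 values. A deposited log2 table of the same counts was not used. Counts rise with gene length and depth, and PCR copies were not separated, so the floor of 3 counts for a zero covers counting error only.

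Genes were filtered with filterByExpr, in place of the TPM filter of the study, scaled by TMM (edgeR 4.0.16) and fitted with voom and limma 3.58.1 in R 4.3.3 with the group as the only term. P-values were adjusted by Benjamini-Hochberg over 16216 genes. Single values were compared by two-sided exact permutation, over 252 rearrangements with all libraries. There were fewer when a library was left out or within replicate pairs. The permutation code was checked against scipy 1.17.1 on random numbers. Log2 CPM used a prior count of 2, and ratios a pseudocount of 0.5. The fit was tested on simulated data. Positions and exon lengths are those of GENCODE M21 (GRCm38, the build mm10), matched by gene ID to 37693 genes. Promoters came from RefSeq. Alternatives were edgeR's quasi-likelihood test, DESeq2 1.42.0, other factors and filters, library weights, a replicate block, the sample number and leaving out each library.

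The members and lists were chosen with earlier results of these data known. Named beside the members were Slc2a1, H19, up to 12 pathway and 4 FOXO-induced genes with the smallest unadjusted p under 0.05, and the 2 genes most like each member among those whose mean log2 CPM reached 1. Gadd45a was named because it passed an alternative, as Igf2bp1 did, and marker genes were named after their values were seen. Replicate numbers did not pair the samples (correlations between -0.161 and 0.076). The macrophage marker Adgre1 had no row under that symbol, and the other 4 macrophage markers summed to 26.4 to 71.5 CPM. The tumour-initiating alleles and 1 gene of the wider pathway list are not reported here, and the counts leave them out.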

Additional observations from a re-analysis of the deposited data

Results flagged for a closer look

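Among 40 groups of 5 libraries searched, 1 library lay apart from the other 4 beyond the critical value of Dixon's test, a gap of 0.71 of the range, in 3, where chance at 1 in 20 gives 2. Igf1 in KP 1 was at 3.83 log2 CPM while KP 2 to KP 5 lay between 1.72 and 1.96, so the gap took 0.886 of the group's range. Igfbp3 in KP 5 was at 7.94 while KP 1 to KP 4 lay between 8.41 and 8.58 (gap 0.73). Fbxo32 in KPG1 2 was at 4.99 while the remaining KPG1 libraries lay between 4.45 and 4.57 (gap 0.77). No explanation of these values was tested.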

How the results depend on the processing

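Of 363 values recomputed under the alternatives, 333 kept their direction and side of the threshold. The number of members past the threshold was 2 instead of 0 with DESeq2 and with a weight per library, and 0 to 2 without single libraries (2 without KP 5). FOXO-induced genes passing went from 0 to 1 with DESeq2 and with the weights, and to 0 to 2 without single libraries. Other pathway genes passing went to 0 to 1 without single libraries. The 1 was Igf2bp1 without KP 2, which failed the filter with all libraries. The receptor ratio difference ran from -0.58 to -0.26 and the docking protein one from 0.96 to 1.53 without single libraries. The replicate numbers do not pair the samples, and with a replicate block 0 members passed (Igf2bp2 limma adjusted p = 0.154) and the ratio differences of -0.45 and 1.26 had p-values of 0.188 and 0.125 (exact permutation within pairs). Directions turned for 4 members. Irs1 turned in limma to -0.03 with the weights, -0.05 without KP 5 and -0.06 without KPG1 2, and in mean log2 CPM to -0.02 without KP 1, -0.06 without KP 5 and -0.08 without KPG1 2. Igfbp3 turned to -0.09 with the weights and without KPG1 1 to -0.05 (mean log2 CPM -0.03), Igf2 without KP 1 to 0.14 (0.13), and Igf2r without KP 5 to 0.00 in mean log2 CPM. A mean TPM of at least 20 left 5 of 10 members to test (Igf2r, Igfbp3, Igfbp4, Insr and Irs2). Over all single omissions the limma value ran up to 0.39 for Irs1 and 0.29 for Igfbp3 and down to -1.0 for Igf2, and the mean log2 CPM difference up to 0.39 and 0.29 and down to -0.97 for Igf2 and -0.23 for Igf2r. The causes were not tested. Depth limits genes with few counts, such as Igf2 in most libraries and the untested genes.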
